A study of Danio rerio with 6 samples.

Results

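Genes of voltage-gated and inward rectifier ion channels were followed in RNA of cells sorted from zebrafish larvae, together with the 2-pore, calcium-activated and auxiliary potassium channel genes, the HCN, anoctamin and ClC genes. A gene belonged to the set when its symbol, read without regard to case, began with kcn and a letter, scn and a digit, cacna, cacnb, cacng, hcn, ano and a digit, or clcn. Of the 32469 gene rows, 192 met this rule, and 187 of them had at least 1 count. The table of gene names gave a symbol to 20734 rows in all, so channel genes without a symbol were not counted. Of the 192 genes, 63 shared a symbol with another gene of the set. Such genes are told apart below by their Ensembl identifiers, and reads of close duplicates may have been split or dropped.

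Treated embryos were kept in 100 µM gallein, a compound that blocks the beta-gamma dimer of G proteins from acting on its effectors, starting 16 to 20 hours post fertilization, and controls were kept in DMSO over the same time. The medium was renewed every 24 hours in either group. All animals carried the OMP-Gal4 and UAS-GCaMP1.6 transgenes, which place a green calcium sensor under the promoter of omp, active in mature olfactory neurons, and cells of dissociated heads were sorted for green fluorescence at 5 days post fertilization. There were 3 gallein and 3 control samples, called biological replicates in the labels. The labels do not say whether they came from separate clutches or days, so p-values measure the spread between these samples.

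Inward rectifier channels, encoded by kcnj genes, pass potassium more easily into the cell than out of it and hold the resting potential near the potassium equilibrium. The subgroup called GIRK (kcnj3, kcnj5, kcnj6 and kcnj9) is opened directly by G protein beta-gamma dimers, which makes it the channel family closest to the target of gallein. Voltage-gated sodium, calcium and potassium channels generate and shape action potentials, and in olfactory neurons they act downstream of a transduction current carried by cyclic nucleotide-gated channels and, in mammals, by the calcium-activated chloride channel ANO2. A change in channel activity by a drug need not alter transcript levels, and RNA is what was measured here.

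Gene counts per library ran from 30822664 to 40295728. The libraries also held RNA of other head tissues, and they differed widely within a group. Markers of mature ciliated olfactory neurons (7 genes, with omp, gnal and cnga4 among them) summed to 27.9, 16.3 and 37.5 CPM (counts per 1000000, TMM-scaled) in the gallein libraries and to 60.3, 61.6 and 60.9 CPM in the controls. In gallein replicate 2, 3 of these 7 genes were at 0, among them cngb1b and the ADCY3 gene ENSDARG00000017437, and OMP was at 0.192 CPM. That library also held 22446 CPM of 9 pigment cell genes, against 145 and 165 CPM in the other gallein libraries and 162 to 309 CPM in controls. Brain and general neuron markers (20 genes) summed to 978, 1366 and 1567 CPM in gallein and to 828, 837 and 916 CPM in controls. This order depended on the scaling. In unscaled counts the sums were 25726, 28390 and 57791 in gallein and 32933, 48976 and 39794 in controls. Most of the genes did not follow these sums, since 13 of the 20 had negative log2 fold changes (median -0.18, with -1.12 without gallein replicate 3 and 0.07 without control replicate 2), and a different gene was on top in each gallein library. SLC17A7 (ENSDARG00000090106) made up 417 CPM in gallein replicate 1, SYT1 made up 445 CPM in gallein replicate 2 and ELAVL4 made up 539 CPM in gallein replicate 3. Without these genes the other 17 summed to 417, 859 and 876 CPM in gallein and to 691, 632 and 641 CPM in controls, so gallein replicate 1 then lay below every control. In bulk samples, fewer cells of a type and less RNA per cell cannot be told apart.

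No channel gene passed the threshold (edgeR quasi-likelihood test, Benjamini-Hochberg adjusted p under 0.05 over the 18271 genes tested). The share of all genes called was 0% as well. Of the 192 channel genes, 145 had enough counts for the test, 77 with a negative and 68 with a positive log2 fold change of gallein over control. The negative ones were 53.1% of the 145, beside 47.3% of all genes. Counts of signs by subfamily, given below, stand beside the same 47.3%. The genes of a subfamily were read in the same libraries, so their signs are not independent. The median was -0.07 for the channel genes and 0.07 for all genes. The 1 tested gene that lacked gallein counts lay below the channel median at its fitted value and at the bound its counts allow. Using that bound could therefore not move the median. With 1 library left out the channel median ran from -0.58 without gallein replicate 3 to 0.08 without control replicate 3, and it was 0.06 without control replicate 2. At an unadjusted p under 0.05 stood 9 channel genes (6.21%), beside 6.50% of all genes. Of these, 4 were higher in gallein (2.76%, beside 4.03%) and 5 lower (3.45%, beside 2.47%). DESeq2 called 1 of the 145, a KCNJ3 gene that was higher in gallein, beside 0.509% of all genes (0.296% higher and 0.213% lower), and limma-voom called 0, with 3 at an unadjusted p under 0.05 (2.07%, beside 2.87%). Another 12 of the 145 had no adjusted p in DESeq2 and could not be called there, KCNG2, KCNC2, CACNG2 and KCNK6 among them.

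**Figure D1:**
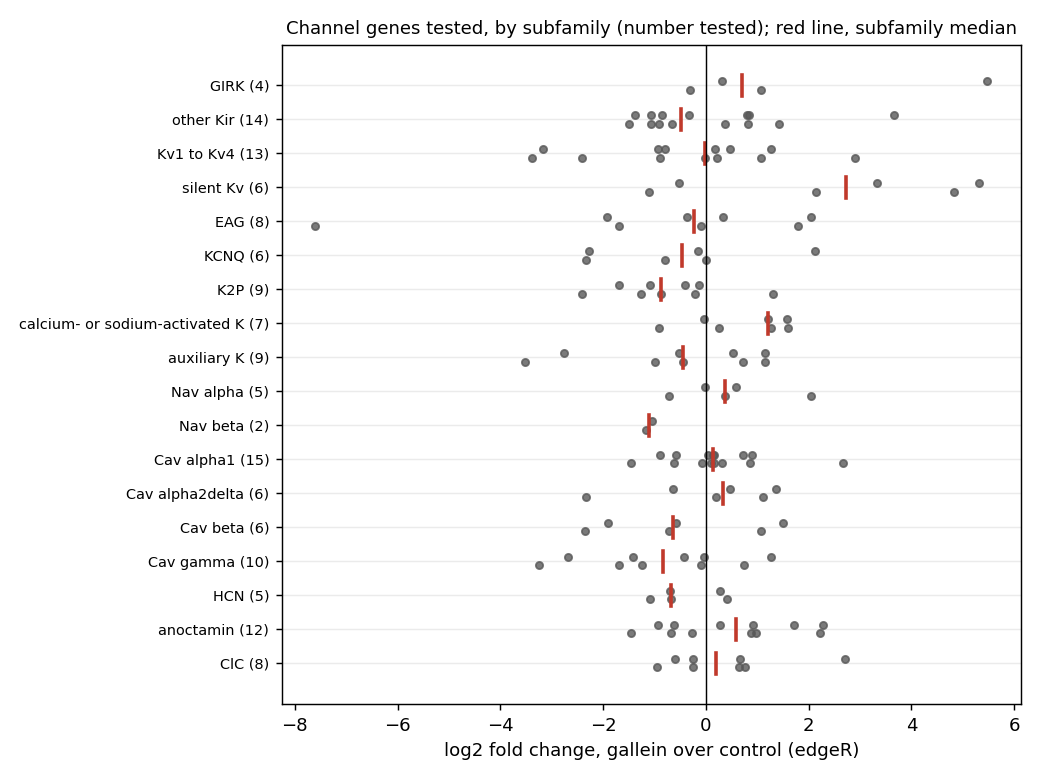
Log2 fold change of gallein over control (x axis, edgeR) for each of the 145 channel genes tested, by subfamily (rows, number tested in parentheses). Grey points are genes and red lines are subfamily medians. Points lie on either side of 0 in every subfamily but the Nav beta subunits, where both are negative.

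In 14 channel genes each of the 3 gallein libraries had a lower level than any of the 3 controls, and in 2 each had a higher one. These were 9.66% and 1.38% of the 145 tested, beside 5.22% and 3.81% of all genes tested. A gene that passed the filter on low counts through its controls alone had to differ, so these counts describe the set and do not show an effect. Of the 14 genes, 8 reached the level of the filter in all controls and in at most 1 gallein library, and no fitted value or p is given for those among them that are described below. Of the 47 genes under the filter, 42 had at least 1 count. In 6 of these (14.3%) all gallein libraries lay below the controls and in 0 above, beside 4.35% and 1.35% of all genes under the filter with a count. With any 1 library left out the count below rose, among the channel genes and among all genes, because fewer libraries separate more easily. Without gallein replicate 3, both remaining gallein libraries lay below all controls in 39 of the 145 (26.9%), beside 15.2% of all genes. They lay above in 8 (5.52%, beside 11.3%). With another library left out, the genes below numbered 19 without gallein replicate 1 (13.1%, beside 11.8% of all genes), 21 without gallein replicate 2 (14.5%, beside 9.86%), and 20, 19 and 20 without control replicate 1, 2 or 3 (beside 10.5%, 8.59% and 9.20%). The genes above numbered 10 without gallein replicate 1 (beside 8.83% of all genes), 7 without gallein replicate 2 (beside 8.72%), and 4, 7 and 3 without control replicate 1, 2 or 3 (beside 8.16%, 6.37% and 6.33%). The counts also moved with the scaling. Scaled to the ERCC spike-in, 36 of the 145 lay below and 0 above, beside 29.9% and 0.104% of all genes. Scaled to total gene counts, 20 lay below and 0 above, beside 11.2% and 1.03%. The median of all genes was -1.67 under the spike-in scaling and -0.49 under total counts, and that of the channel genes was -1.74 and -0.59. Relative to all genes, the channel median was -0.14 under TMM, -0.07 under the spike-in and -0.10 under total counts.

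The summed level of channel transcripts depended on single genes and on the scaling. Over the 192 genes it was 744, 1401.5 and 1417 CPM in gallein replicates 1 to 3 and 1194, 827 and 1077 CPM in control replicates 1 to 3. Gallein replicates 2 and 3 stood above every control and gallein replicate 1 below. This order did not hold without the TMM scaling. As a share of gene counts, the channel set made up 0.0514%, 0.0896% and 0.170% in gallein and 0.125%, 0.120% and 0.134% in controls. By that share gallein replicate 2 lay below every control. The KCNJ3 gene described next was then left out, with its value known. The sums became 743, 716 and 1388 CPM in gallein and 1189, 823 and 1071 CPM in controls. Gallein replicate 3 then stood above every control and the other gallein libraries below every control. Control replicate 1 still held CACNG2 at 317 CPM and KCNK6 at 108 CPM. At equal depth of 30822664 counts, 129, 112 and 151 of the 192 genes reached 5 counts in gallein, against 142, 170 and 153 in controls. Over all gene rows the same count was 17437, 16597 and 18895 in gallein and 18840, 20738 and 18850 in controls. The lowest of the 6 values fell in gallein replicate 2 for 60 and in gallein replicate 1 for 37 of the 145 tested genes (41.4% and 25.5%), beside 30.6% and 17.7% of all genes. Libraries tied at 0 were credited to the first of them, gallein before control, so these counts include ties. The highest fell in gallein replicate 3 for 42 of them (29.0%), beside 18.2% of all genes.

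Among the GIRK genes, 1 of the 2 named KCNJ3 stood far above its controls in gallein replicate 2. KCNJ3 encodes the subunit GIRK1, which in mammals forms heteromers with other GIRK subunits. ENSDARG00000062217 was at 0.950, 686 and 29.0 CPM in gallein replicates 1 to 3 and at 5.26, 4.89 and 5.99 CPM in the controls. Its controls lay close together, with gallein replicate 1 below them and gallein replicates 2 and 3 above. The log2 fold change was 5.47 ± 1.82 (SE, edgeR adjusted p = 0.756), and the DESeq2 value was 5.59 (DESeq2 adjusted p = 0.00967). Without gallein replicate 2 the edgeR value was 1.48, and under scaling to the ERCC spike-in it was 3.04. In that library KCNJ3 held 14255 counts of the 29127 of the whole channel set. The same library held the pigment cell genes at the level given above, among them TYRP1 (ENSDARG00000029204) at 20394 CPM and with 0 of the 9 genes at 0, and the part of such cells in the KCNJ3 value was not tested.

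The other GIRK genes showed no such level in gallein replicate 2. The other KCNJ3 gene, ENSDARG00000077165, was at 0.380, 2.94 and 1.44 CPM in gallein and at 2.01, 0.513 and 3.32 CPM in controls (log2 fold change -0.30 ± 1.14, SE). KCNJ6, which encodes GIRK2, was at 0.456, 0.289 and 1.33 CPM in gallein and at 1.31, 0.188 and 0.184 CPM in controls (0.31 ± 1.33). KCNJ9, which encodes GIRK3, was at 0.190, 0 and 4.17 CPM in gallein and at 0.352, 0.821 and 0.898 CPM in controls (1.08 ± 1.64). For all 3 the groups overlapped and the sign depended on single libraries. The value of the KCNJ3 gene was 0.32 without control replicate 3, that of KCNJ6 was -0.58 without gallein replicate 3, and that of KCNJ9 was -2.78 without gallein replicate 3. KCNJ9 reached the level of the filter in all controls and, of the gallein libraries, in gallein replicate 3 only. Its negative value without that library was therefore fixed in advance. KCNJ5, the subunit GIRK4 of the heart, had 5, 0 and 19 counts in gallein and 0, 3 and 12 counts in controls and was not tested.

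Of the 21 other kcnj genes, 14 were tested, 8 with negative and 6 with positive values (median -0.49). Its sign turned when control replicate 1 (0.33) or control replicate 2 (0.34) was left out. The classical inward rectifier KCNJ2, known from muscle and neurons, was at 1.48, 1.64 and 6.75 CPM in gallein and at 11.2, 12.2 and 4.44 CPM in controls. Gallein replicates 1 and 2 lay below every control and gallein replicate 3 did not (log2 fold change -1.49 ± 0.89, SE, edgeR adjusted p = 0.788). Its relative kcnj12b was at 0.190, 0.0481 and 5.23 CPM in gallein and at 0.201, 0.855 and 0.990 CPM in controls, with gallein replicate 3 on top.

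Among pore subunits of ATP-sensitive channels, kcnj11l was the only tested kcnj gene whose groups did not overlap. Its level was 3.76, 0.0962 and 3.63 CPM in gallein and 5.01, 8.29 and 6.22 CPM in controls, and the fold change on the log2 scale was -1.38 ± 1.10 (SE, edgeR adjusted p = 0.841). Without gallein replicate 2 it was -0.81. The gene named kcnj11 was at 2.09, 0 and 2.33 CPM in gallein and at 0.0252, 0.855 and 1.61 CPM in controls, so the groups overlapped. KCNJ8, the pore of vascular ATP-sensitive channels in mammals, was at 0.114, 0.192 and 1.46 CPM in gallein and at 2.62, 0.205 and 0 CPM in controls. Their regulatory subunits, the sulphonylurea receptors, include ABCC9, which was at 3.15, 121 and 7.70 CPM in gallein and at 4.10, 4.96 and 5.16 CPM in controls, again with gallein replicate 2 far above the rest.

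Kcnj genes of potassium-transporting epithelia, glia and pigment cells were mostly few in counts. All 7 genes named KCNJ1, which in mammals encodes the kidney channel ROMK, had overlapping groups, with 4 of them tested and log2 fold changes from -1.07 to 0.84. The widest range was that of ENSDARG00000086248, at 9.46, 0 and 0.163 CPM in gallein and 1.71, 2.79 and 0.875 CPM in controls. KCNJ10, a glial channel, was at 4.67, 0 and 0.434 CPM in gallein and at 0.126, 0.0684 and 0.0921 CPM in controls. KCNJ15 showed the same library on top, at 4.90, 0 and 0.244 CPM in gallein and 0.101, 0.291 and 0 CPM in controls, and its log2 fold change of 3.66 ± 2.03 (SE) was -0.04 without gallein replicate 1. KCNJ13, needed for the stripe pattern of zebrafish pigment cells, was at 2.36, 3.56 and 0.705 CPM in gallein and at 9.08, 0.222 and 3.18 CPM in controls. In gallein replicate 2, which held the pigment cell genes, it was above the other gallein libraries and control replicates 2 and 3 and below control replicate 1. KCNJ16, which pairs with KCNJ10 in mammals, was at 0.760, 0.0481 and 0.163 CPM in gallein and at 0, 0.855 and 1.20 CPM in controls. The fish genes kcnj19a and kcnj19b were highest in gallein replicate 2, with groups that overlapped. The level of kcnj19a was 3.00, 7.84 and 1.30 CPM in gallein and 5.61, 2.96 and 0.737 CPM in controls. The level of kcnj19b was 0.722, 2.17 and 0.136 CPM in gallein and 1.28, 0.154 and 0.299 CPM in controls. Of the remaining kcnj genes, kcnj14 had counts in 1 gallein and 2 control libraries and kcnj20 had none. Every gallein library lay below every control for kcnj21, which had 0, 1 and 2 counts in gallein and 6, 52 and 75 counts in controls and was not tested.

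**Figure D2:**
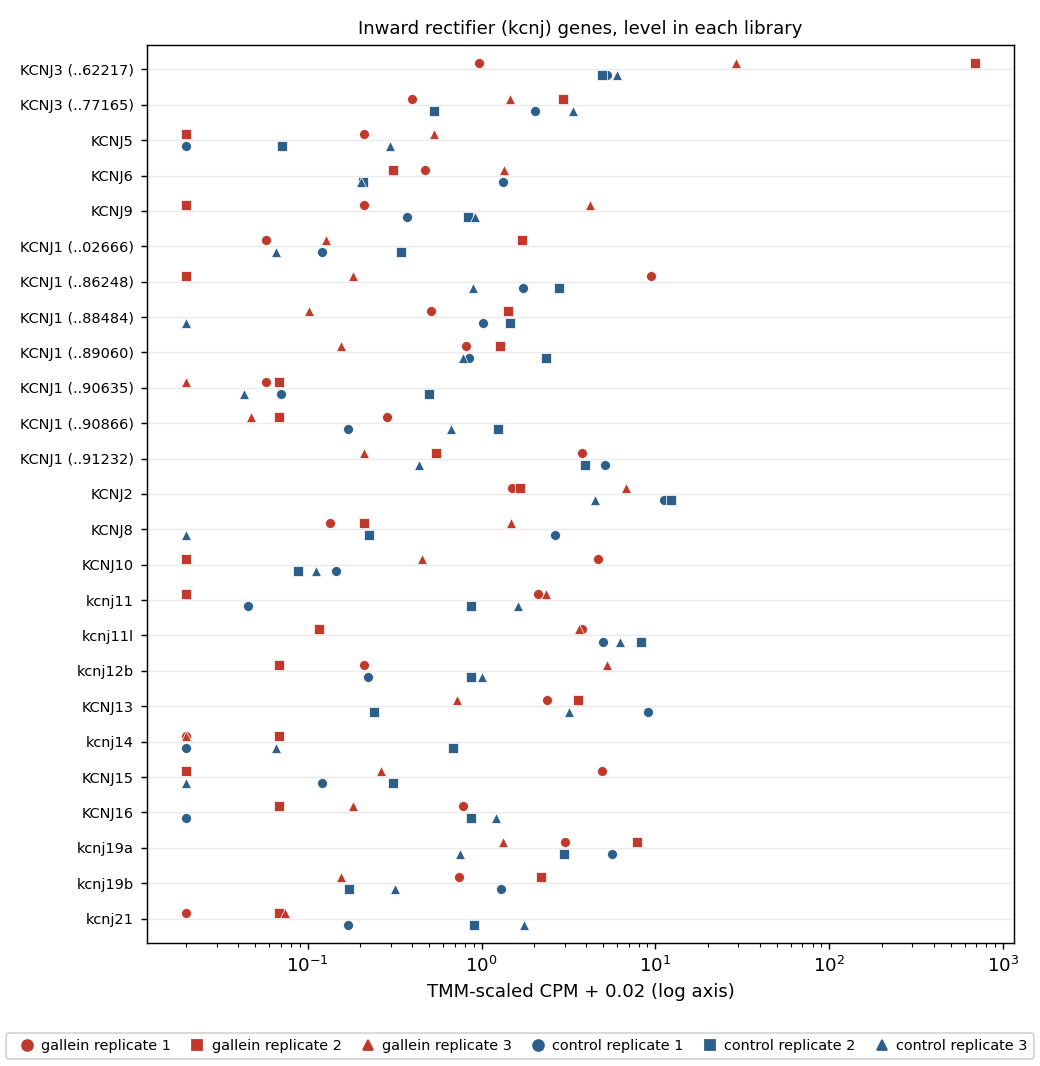
Level of each kcnj gene with at least 1 count (rows; the last digits of the identifier follow a shared symbol) as TMM-scaled CPM + 0.02 on a log axis. Red symbols are gallein and blue symbols control libraries, with circles, squares and triangles for replicates 1, 2 and 3. The KCNJ3 gene at the top reached 686 CPM in gallein replicate 2, while its 3 controls lay between 4.89 and 5.99 CPM.

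Transcripts of the 47 voltage-gated potassium channel genes (Kv, EAG and KCNQ) summed to 73.0, 62.3 and 488 CPM in gallein and to 102, 122 and 183 CPM in controls, so gallein replicate 3 lay above and the other gallein libraries below every control. Of the 33 tested, 18 had negative values (median -0.10, with -0.88 without gallein replicate 3 and 0.34 without gallein replicate 2). Kv channels assemble from pore subunits, and the silent subunits (kcnf, kcng, kcns, kcnv) make no channel alone but join those of the Kv2 family (kcnb) and alter their gating. The silent subunit KCNG2 was at 0.684, 0.962 and 70.4 CPM in gallein and at 0.503, 0.701 and 1.34 CPM in controls. KCNF1 (ENSDARG00000027285) was at 0, 3.46 and 62.1 CPM in gallein and at 0.151, 0.103 and 1.38 CPM in controls, while the other gene of that name, ENSDARG00000027940, was at 0, 0 and 2.06 CPM in gallein and at 0.855, 1.90 and 0.253 CPM in controls. KCNG4 was at 3.23, 0.481 and 66.1 CPM in gallein and at 4.23, 0.308 and 2.39 CPM in controls. In KCNG2, KCNG4 and the first KCNF1 gene, gallein replicate 3 held at least 86.1% of the level summed over the 6 libraries, and gallein replicate 1 lay within or below the control range.

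The log2 fold changes were 4.82 ± 1.64 for KCNG2, 5.32 ± 2.06 for KCNF1 and 3.33 ± 1.55 for KCNG4 (SE). None passed the threshold (edgeR adjusted p = 0.756, 0.756 and 0.774). Without gallein replicate 3 they were -0.05, 1.65 and -0.31. A Kv2 pore gene was high in the same library. KCNB2 (ENSDARG00000088842) was at 0.0380, 0 and 11.01 CPM in gallein and at 0, 1.42 and 0.161 CPM in controls. The gene named kcnb2a was not, at 3.88, 9.33 and 1.06 CPM in gallein and 5.16, 18.1 and 4.05 CPM in controls.

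Other voltage-gated potassium channel genes shared that library. The EAG family gene kcnh7 was at 0.646, 0.674 and 28.6 CPM in gallein and at 2.82, 2.77 and 2.99 CPM in controls. KCND3, a Kv4 channel of A-type current, was at 4.71, 11.7 and 67.9 CPM in gallein and at 7.92, 11.04 and 16.2 CPM in controls. The Kv3 gene kcnc3a was at 9.08, 6.21 and 57.2 CPM in gallein and at 14.2, 25.4 and 22.8 CPM in controls. KCNB2 and kcnb2a were named after their values were seen. The neuron markers ELAVL3 and ELAVL4 were also highest there, with ELAVL3 at 12.3, 14.2 and 250 CPM in gallein and 48.5, 98.0 and 134 CPM in controls, and ELAVL4 at 73.0, 58.0 and 539 CPM in gallein and 56.5, 82.0 and 84.1 CPM in controls. The list of 20 neuron markers did not share this pattern as a whole. Only 5 of the 20 were highest in gallein replicate 3, against 1 and 5 in gallein replicates 1 and 2 and 3 in each control library, and ELAVL3 and ELAVL4 were named after their values were seen. STMN2 (ENSDARG00000070537) was at 42.1, 368 and 39.9 CPM in gallein and at 38.7, 16.9 and 22.4 CPM in controls. The 9 heart markers summed to 15.3, 9.67 and 263 CPM in gallein and to 18.0, 176 and 31.3 CPM in controls. Of these 9 genes, 5 were highest in gallein replicate 3, where myh6 (ENSDARG00000090637) made up 218 CPM. The part of neurons or of heart cells in these channel values was not tested.

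**Figure D3:**
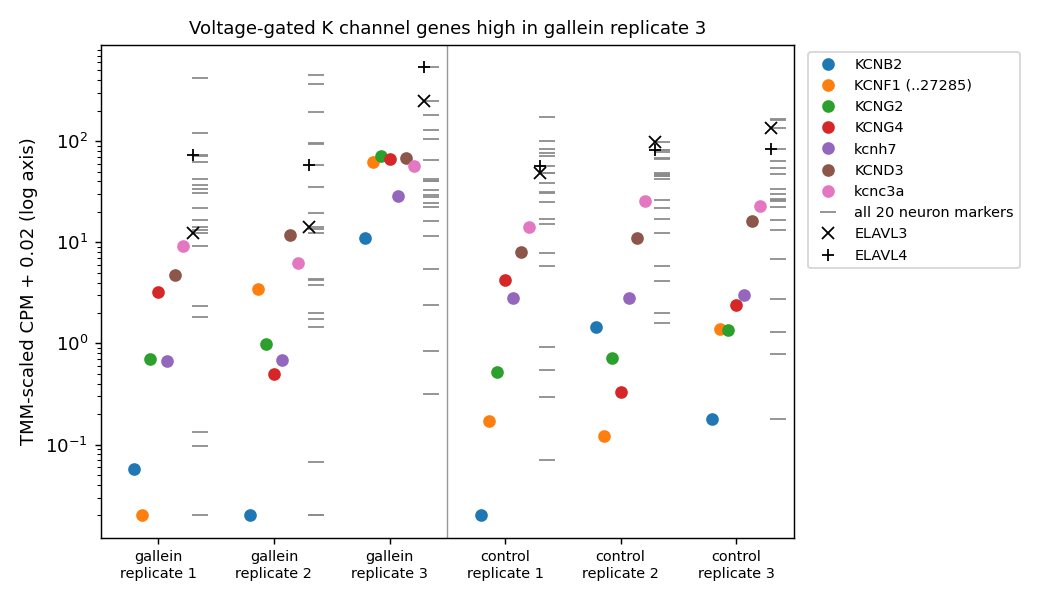
Level of 7 potassium channel genes (coloured points, picked after their values were seen) and of all 20 neuron markers (grey dashes, with ELAVL3 as crosses and ELAVL4 as plus signs) in each library, as TMM-scaled CPM + 0.02 on a log axis. The 7 channel genes were highest in gallein replicate 3, as were 5 of the 20 neuron markers.

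Against these stood potassium channel genes with every gallein library below every control. KCNH2, whose human counterpart hERG repolarises the heart, had no count in any gallein library and 38, 39 and 13 counts in controls. Taking 3 counts over the gallein group as the floor, it was at least 17.8-fold lower in gallein, a bound that covers counting error only. It passed the filter on low counts through its controls alone. Both genes named KCNH4, of the same EAG family, had the same order, the second of them named after its values were seen. ENSDARG00000061990 was at 1.37, 0.0962 and 3.01 CPM in gallein and at 3.57, 4.17 and 9.39 CPM in controls, and ENSDARG00000062565 was at 0.494, 0 and 0.163 CPM in gallein and at 0.906, 0.564 and 0.691 CPM in controls. The log2 fold change of the first was -1.93 ± 1.13 (SE). The second reached the level of the filter in all controls and in at most 1 gallein library.

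KCNA4, an A-type channel of the Kv1 family, was at 0.418, 0 and 0.190 CPM in gallein and at 0.654, 2.26 and 2.67 CPM in controls. All 3 gallein values lay below the lowest control. The auxiliary gene kcnmb3, a beta subunit of the large-conductance calcium-activated channel, was at 0.304, 0.0481 and 0.163 CPM in gallein and at 2.47, 0.581 and 3.02 CPM in controls, again with no overlap. Both KCNA4 and kcnmb3 reached the level of the filter in all controls and in at most 1 gallein library. The pore of that channel, KCNMA1, had overlapping groups, at 28.5, 8.90 and 26.6 CPM in gallein and 8.53, 22.9 and 34.2 CPM in controls. Of the 7 tested calcium- or sodium-activated pore genes 5 had positive values (median 1.22), and all had overlapping groups. With 1 library left out this median ran from -0.37 without gallein replicate 1 to 0.98 without control replicate 3. The small-conductance channel gene kcnn3 was at 7.90, 25.9 and 2.30 CPM in gallein and at 2.31, 2.87 and 6.93 CPM in controls, and the sodium-activated KCNT1 was at 0.874, 6.78 and 6.56 CPM in gallein and at 1.91, 1.90 and 2.10 CPM in controls.

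Among auxiliary potassium channel genes, the Kv beta subunit KCNAB2 was at 0.0380, 0 and 1.82 CPM in gallein and at 0.352, 6.22 and 6.22 CPM in controls, while KCNAB3 was at 19.5, 0 and 2.66 CPM in gallein and at 0.629, 5.88 and 3.43 CPM in controls. Neither separated the groups. The Kv4 partner kcnip3a was at 13.7, 3.95 and 7.16 CPM in gallein and at 3.80, 5.56 and 1.82 CPM in controls.

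Of the 2-pore (kcnk) genes, whose leak currents set the resting potential, 8 of 9 tested had negative values (median -0.88), beside 47.3% of all genes. This median was -1.71 without gallein replicate 3 and 0.24 without control replicate 3. The acid-sensitive leak channel KCNK5 (ENSDARG00000012390) was at 1.33, 0.529 and 1.52 CPM in gallein and at 5.74, 1.78 and 3.50 CPM in controls (log2 fold change -1.70 ± 0.97, SE, edgeR adjusted p = 0.784). The other KCNK5 gene, ENSDARG00000023587, was at 0.874, 0.625 and 0.163 CPM in gallein and at 0.277, 0.154 and 0.230 CPM in controls, with gallein replicates 1 and 2 above every control and gallein replicate 3 within their range. KCNK6 was at 5.89, 12.8 and 4.96 CPM in gallein and at 108, 10.3 and 7.48 CPM in controls. Its value of -2.42 ± 1.07 came from control replicate 1, without which it was -0.15. Both KCNK3 genes, which encode the TASK1 leak channel, were at 0 in gallein replicates 1 and 2. The untested one, ENSDARG00000052898, named after its values were seen, had no gallein count and 1, 38 and 114 counts in controls. Against the 3 controls pooled it was at least 30.2-fold lower in gallein, a bound that covers counting error only. Most control counts came from control replicate 3. Control replicate 1 had 1 count, so no such drop is shown against that library.

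A single control library likewise carried KCNC2, a fast Kv3 channel, at 1.22, 1.15 and 1.57 CPM in gallein and 0.906, 0.906 and 39.7 CPM in controls. Its log2 fold change of -3.39 ± 1.40 (SE) was 0.54 without control replicate 3. Such single-library values were common: in 37 of the 145 tested genes (25.5%) 1 library held over 50% of the summed level, beside 23.5% of all genes tested. By library they numbered 5, 6 and 14 in gallein replicates 1 to 3 (3.45%, 4.14% and 9.66%, beside 5.11%, 6.50% and 3.92% of all genes). In control replicates 1 to 3 they numbered 7, 3 and 2 (4.83%, 2.07% and 1.38%, beside 2.77%, 2.39% and 2.81%).

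**Figure D4:**
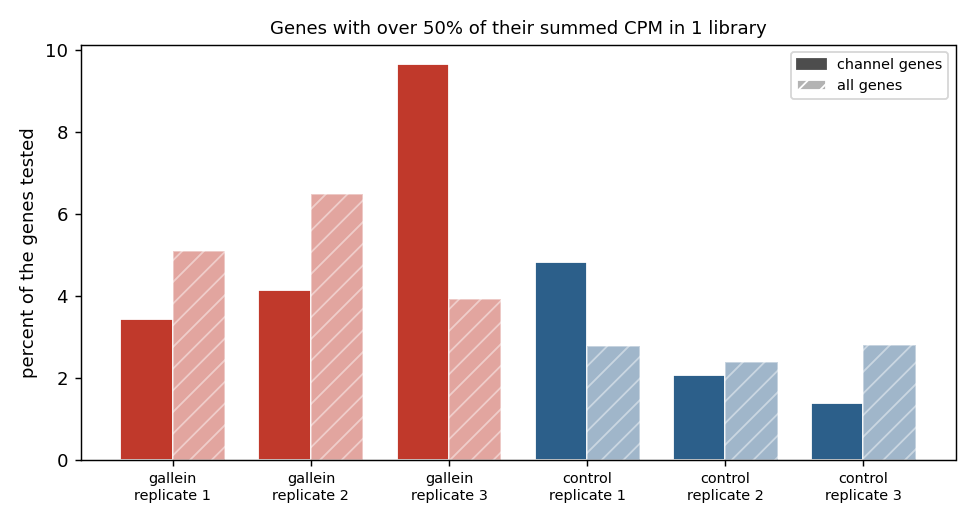
Percent of the genes tested (y axis) that had over 50% of their CPM, summed over the 6 libraries, in the library on the x axis. Solid bars are the 145 channel genes and hatched bars all 18271 genes, in red for gallein and blue for control. Gallein replicate 3 held 9.66% of the channel genes, beside 3.92% of all genes.

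Sodium channels of the Nav family carry the rising phase of the action potential. SCN3B, a beta subunit that modulates the pore, was at 7.37, 5.29 and 30.8 CPM in gallein and at 21.6, 27.8 and 48.3 CPM in controls (log2 fold change -1.17 ± 0.83, SE). Gallein replicates 1 and 2 lay below every control and gallein replicate 3 within their range.

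The neuronal pore gene SCN8A (ENSDARG00000005775), which encodes Nav1.6, was at 10.1, 10.3 and 36.7 CPM in gallein and at 10.99, 16.4 and 30.5 CPM in controls. The larval pore gene scn1lab was at 23.4, 2.17 and 30.9 CPM in gallein and at 6.21, 8.62 and 22.9 CPM in controls, with no common direction. The muscle sodium channel scn4ab was at 12.01, 3.27 and 6.78 CPM in gallein and at 17.7, 8.82 and 9.65 CPM in controls (-0.71 ± 0.75, SE, edgeR adjusted p = 0.897). The list of 18 skeletal muscle markers summed to 2995, 3103 and 1018 CPM in gallein and to 3156, 2913 and 774 CPM in controls.

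Pore subunits of voltage-gated calcium channels had 10 positive and 5 negative values over all 15 genes, with a median of 0.13. This median was -0.52 without gallein replicate 3 and -0.16 without control replicate 1. CACNA1C, the L-type channel of heart and neurons, was at 3.23, 28.3 and 13.7 CPM in gallein and at 1.28, 4.94 and 0.852 CPM in controls. Gallein replicates 2 and 3 lay above every control and gallein replicate 1 within their range (log2 fold change 2.67 ± 1.02, SE, edgeR adjusted p = 0.756, and 1.85 to 3.81 with any 1 library left out). Under the spike-in scaling, which put the median of all genes at -1.67, it was 0.38. The presynaptic N-type channel gene CACNA1B (ENSDARG00000021735) was at 4.26, 0.289 and 68.8 CPM in gallein and at 10.4, 21.6 and 36.3 CPM in controls, and the P/Q-type gene cacna1aa was at 7.98, 2.79 and 52.7 CPM in gallein and at 3.85, 16.8 and 13.3 CPM in controls. Both were highest in gallein replicate 3, where the potassium channel genes above were high. The T-type gene CACNA1G was at 4.64, 1.64 and 29.9 CPM in gallein and at 29.7, 8.82 and 28.5 CPM in controls.

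L-type channels of muscle and of photoreceptors overlapped between groups. CACNA1S, the voltage sensor of muscle contraction, is the name of a pair of genes: ENSDARG00000042552 was at 0.0760, 0.192 and 12.4 CPM in gallein and at 3.52, 2.02 and 1.497 CPM in controls, and ENSDARG00000029457 was at 3.27, 1.78 and 4.91 CPM in gallein and at 8.60, 4.24 and 2.16 CPM in controls. The photoreceptor gene cacna1fa was at 4.29, 4.23 and 11.9 CPM in gallein and at 0.805, 12.8 and 4.67 CPM in controls. Its partner cacna2d4b, an alpha2delta subunit of photoreceptor synapses in mammals, was at 9.73, 4.33 and 1.08 CPM in gallein and at 1.18, 14.7 and 7.67 CPM in controls. Another alpha2delta gene, cacna2d1a, was at 26.4, 15.5 and 4.85 CPM in gallein and at 1.89, 7.66 and 8.56 CPM in controls. Both cacna1fa and cacna2d4b were higher in control replicate 2 than in the other controls. So was GNAT2, the cone transducin, at 734, 784 and 87.5 CPM in gallein and 202, 4692 and 1566 CPM in controls. CACNA1F, another photoreceptor pore gene, was at 3.23, 27.2 and 3.63 CPM in gallein and at 3.62, 12.9 and 10.96 CPM in controls. The photoreceptor gene KCNV2 (ENSDARG00000076644) was at 4.03, 4.76 and 0.0813 CPM in gallein and at 0.0252, 1.49 and 0.483 CPM in controls. Gallein replicate 2 was highest for CACNA1F and KCNV2, and their groups overlapped. The list of 15 photoreceptor genes, which had also taken in the RhoA genes rhoaa and rhoab, summed to 21951, 2970 and 365 CPM in gallein and to 2002, 10344 and 2730 CPM in controls. The cone opsin gene opn1sw2 made up 20455 CPM of the sum in gallein replicate 1. Without it the list summed to 1496, 2623 and 329 CPM in gallein and to 657, 9457 and 2461 CPM in controls, with control replicate 2 highest. The part of photoreceptors in these channel values was not tested.

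Gamma and beta subunits of calcium channels had negative medians, whose size depended on single libraries. Of 10 tested gamma (cacng) genes, several of which serve AMPA receptors as well, 8 had negative values (median -0.83), beside 47.3% of all genes. In 3 of them all gallein libraries lay below all controls, an order seen in 5.22% of all genes tested. Of these 3, the CACNG7 and CACNG5 genes given below reached the level of the filter in all controls and in at most 1 gallein library. The gamma median ran from -1.31 without control replicate 3 to -0.24 without control replicate 1, and it was -0.28 without gallein replicate 1. CACNG7 (ENSDARG00000063006) was at 0.0380, 0.385 and 0.108 CPM in gallein and at 3.50, 0.479 and 1.08 CPM in controls. CACNG5 (ENSDARG00000039240) was at 0.152, 0 and 1.33 CPM in gallein and at 1.66, 1.38 and 1.84 CPM in controls. CACNG8 (ENSDARG00000070626) was at 1.22, 0.0962 and 2.25 CPM in gallein and at 2.64, 4.599 and 2.28 CPM in controls, so gallein replicate 3 lay just below the controls in both. CACNG2, known as stargazin, was at 7.64, 22.1 and 23.2 CPM in gallein and at 317, 9.98 and 12.4 CPM in controls. Its value of -2.68 ± 1.30 came from control replicate 1 and was 0.67 without it. The beta subunit CACNB3 (ENSDARG00000001881) was at 0.342, 0 and 0.569 CPM in gallein and at 0.780, 3.23 and 0.760 CPM in controls, with every gallein library below every control. It too reached the level of the filter in all controls and in at most 1 gallein library. The other CACNB3 gene, ENSDARG00000076030, was at 0.152, 4.23 and 8.24 CPM in gallein and at 0.277, 2.24 and 1.96 CPM in controls. Of the 6 beta subunit genes 4 had negative values (median -0.65). Leaving out gallein replicate 3 gave -1.39, leaving out gallein replicate 2 gave -0.33 and leaving out control replicate 2 gave -0.31. The gene cacnb4b was at 21.2, 130 and 32.8 CPM in gallein and at 31.2, 21.3 and 35.1 CPM in controls, with gallein replicate 2 far above the rest.

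The 5 HCN genes, whose channels open on hyperpolarisation and carry pacemaker current, had overlapping groups, with hcn2b at 5.13, 10.2 and 4.80 CPM in gallein and 18.8, 7.49 and 5.82 CPM in controls. Among the anoctamins, ano2a, the relative of the mammalian olfactory chloride channel, was at 3.91, 3.08 and 9.27 CPM in gallein and at 6.34, 15.9 and 3.89 CPM in controls (log2 fold change -0.68 ± 0.84, SE, edgeR adjusted p = 0.917), and the value was 0.08 without control replicate 2. Unlike OMP, with 4.79, 0.192 and 4.99 CPM in gallein and 13.4, 6.96 and 7.80 CPM in controls, ano2a was not near 0 in gallein replicate 2. The ciliated neuron markers were themselves divided there. While 3 of the 7 were at 0, gnal was at 2.45 CPM and the ADCY3 gene ENSDARG00000077145 at 13.6 CPM. The cyclic nucleotide-gated subunit cnga4, which lies outside the channel set, was at 6.65, 0.0962 and 7.73 CPM in gallein and at 14.6, 9.80 and 7.55 CPM in controls.

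Both genes named ANO5, an anoctamin of muscle and bone in mammals, had every gallein library below every control. ENSDARG00000015731 was at 2.43, 3.70 and 13.4 CPM in gallein and at 15.5, 16.6 and 21.7 CPM in controls, and the fold change on the log2 scale was -1.46 ± 0.80 (SE, edgeR adjusted p = 0.784). ENSDARG00000036147 was at 12.9, 1.40 and 12.2 CPM in gallein and at 15.9, 15.0 and 19.6 CPM in controls (-0.93 ± 0.84, SE, edgeR adjusted p = 0.869). For both, control libraries lay close together and the lowest gallein library differed between the 2 genes.

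The 2 genes with all gallein libraries above the controls were ANO3 and CLCN7. ANO3 was at 0.380, 2.02 and 0.380 CPM in gallein and at 0.176, 0.291 and 0.115 CPM in controls (log2 fold change 2.22 ± 1.32, SE, edgeR adjusted p = 0.788), which rested on 66 counts over the gallein group. CLCN7, a chloride-proton exchanger of lysosomes, was at 18.5, 17.6 and 14.5 CPM in gallein and at 13.1, 12.2 and 6.49 CPM in controls (0.67 ± 0.65, edgeR adjusted p = 0.881). Under the spike-in scaling both had negative values, -0.12 for ANO3 and -1.20 for CLCN7. CLCN3, an endosomal relative of CLCN7, had overlapping groups, at 42.5, 50.3 and 52.1 CPM in gallein and 59.0, 46.2 and 67.8 CPM in controls. The plasma membrane channel gene clcn2c was at 70.1, 3.85 and 5.58 CPM in gallein and at 78.3, 22.9 and 52.5 CPM in controls. The muscle gene CLCN1 (both copies) and the kidney gene clcnk had too few counts to be tested.

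**Figure D5:**
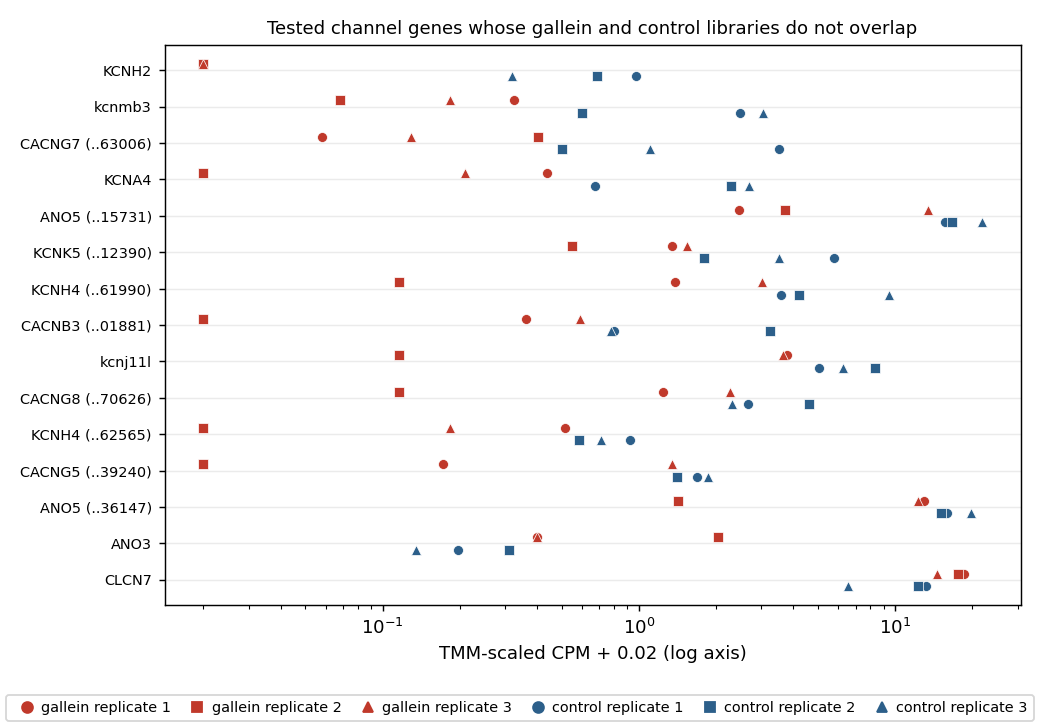
Level of 15 of the 16 tested channel genes whose gallein (red) and control (blue) libraries did not overlap, as TMM-scaled CPM + 0.02 on a log axis, with circles, squares and triangles for replicates 1, 2 and 3. In the upper 13 rows every gallein library lies left of every control, and in ANO3 and CLCN7 it lies right.

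No gene of the lists around these channels passed the threshold in edgeR, which called 0 of all genes tested. Beta and gamma subunits of G proteins form the dimer that gallein acts on. Of 17 tested genes with symbols of such subunits, 13 had negative and 4 positive values. The symbols had also taken in gnb1l, a gene like a beta subunit, which at -0.04 counted among the negative ones. Among all genes 47.3% were negative. The median of the 17 was -0.25 and 0 passed the threshold. Leaving out gallein replicate 2 gave a median of -0.46, leaving out control replicate 3 gave -0.41, and leaving out control replicate 2 turned it to 0.22. Of 10 tested genes of other beta-gamma effectors, 4 were negative and 6 positive, and of 10 tested channel partners 5 and 5. Beside ABCC9, the partner NALCN, a sodium leak channel, was at 4.71, 6.40 and 9.46 CPM in gallein and at 28.8, 9.23 and 14.4 CPM in controls.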

How the data were processed

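RNA of GFP-positive cells sorted from larval heads was enriched for poly(A) and made into libraries with a SPIA amplification kit, per the labels' protocols. The authors deposited 2 files of whole-number read counts per gene for each of 6 samples. TopHat2 2.0.4, HTSeq and the build Zv9 are named in the submitters' processing notes. No label or file header states the strand setting, the treatment of multiply mapped reads or the annotation release, so overlapping and antisense genes could not be told apart. No gene lengths were used, so levels were compared within a gene only.

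Both files of a sample were summed and counted as 1 replicate. The 92 ERCC spike-in rows and 5 rows naming no gene were left out of library sizes and tests; rows that named no gene held 19.4% to 33.9% of a sample's counts. Symbols came from a table of Ensembl identifiers, in which 20734 of the 32469 rows had one. Genes were filtered with filterByExpr (minimum count 10), scaled by TMM and tested with the quasi-likelihood test of edgeR 4.0.16 in R 4.3.3, group as the only term, two-sided, with Benjamini-Hochberg adjustment over 18271 genes. The SE given after ± was derived from that test, as the absolute log2 fold change divided by the square root of its F statistic. The procedure was also tested on simulated data. Alternatives used DESeq2 1.42.0, limma 3.58.1 (limma-voom), other scalings and filters, single files, the replicate number as a block and each sample left out. Counting intervals and floors cover counting error only, with 3 counts over a group as the floor.

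Channel genes, gene lists and alternatives were chosen with earlier results of these data known. Named were genes past the threshold, every kcnj gene and, in the other subfamilies, candidates among up to 4 genes with the smallest p, up to 2 with the highest mean CPM and genes known from 1 tissue. Genes whose groups did not overlap, and those high in gallein replicate 3, were also picked after their values were seen. Results of a few genes are not reported here.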

Additional observations from a re-analysis of the deposited data

How the results depend on the processing

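The count of 0 channel genes past the threshold held in edgeR under every other scaling, filter, single file, left-out sample and the block, and in limma-voom. DESeq2 called 93 genes in all, 1 of them a channel gene. The median log2 fold change of the channel genes was -1.74 with spike-in size factors and ran from -0.58 to 0.08 with 1 sample left out. Channel genes with every gallein library below every control numbered 36 with spike-in size factors (24.8%, beside 29.9% of all genes). With 1 sample left out they numbered 19 to 39 (13.1% to 26.9%, beside 8.59% to 15.2%). Those above numbered 0 with spike-in size factors (beside 0.104%) and 0 with library size only (beside 1.03%). With 1 sample left out those above numbered 3 to 10 (2.07% to 6.90%, beside 6.33% to 11.3%). These counts were examined after seeing the data. With spike-in size factors the sign turned for KCNJ6 (-0.55), KCNJ9 (-0.021), ANO3 (-0.12) and CLCN7 (-1.20), and KCNJ9 was at -0.96 in limma-voom. The spike-in also lowered KCNJ3 ENSDARG00000062217 to 3.04 and KCNJ15 to 1.09, and it lowered 18 of the 23 genes by over 1 on the log2 scale. With 1 sample left out, log2 fold changes turned sign for 9 of 23 genes with a fitted value given. They ran from -1.09 to 0.325 for KCNJ3 ENSDARG00000077165, -0.58 to 1.89 for KCNJ6, -2.78 to 1.66 for KCNJ9, -0.043 to 5.00 for KCNJ15, -0.047 to 5.39 for KCNG2, -0.31 to 4.10 for KCNG4, -3.95 to 0.54 for KCNC2, -3.23 to 0.67 for CACNG2 and -1.32 to 0.082 for ano2a. Of 378 values for these 23 genes, 359 kept direction and side of the threshold and 18 turned sign. With no channel gene called by edgeR or limma-voom in any setting, the side could change in DESeq2 only. The alternatives reused the same samples, so these values are not independent. Deviations of same-numbered samples correlated at 0.07, -0.10 and 0.17, and those of differently numbered samples at -0.24 to 0.16. With so few samples these values cannot show whether replicate numbers mark shared clutches or days. With the replicate block, 0 genes were called, the channel median was -0.48 and KCNJ9 was at -0.96. The block moved 8 of the 23 genes by over 1 on the log2 scale. Of these, KCNJ3 ENSDARG00000062217 was at 2.30, KCNG2 at 1.89, KCNG4 at 1.48, KCNF1 at 3.73, KCNC2 at -0.99, CACNG2 at -0.45 and KCNK6 at -1.32 with the block. The cause of these shifts was not tested. Of the 192 channel genes, 47 had too few counts for the test, and the part of depth in the other results was not tested.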
